A study of Homo sapiens with 8 samples.

Results

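The genes of DNA replication described here are 43 named genes that load, start, extend or supply the replication fork. They were looked up by symbol in the platform's probe table, and for each gene the array feature with the highest mean was used. All 43 had a feature and all 43 passed the filter on low values, out of 23854 genes tested in all. They come from PC-3, an established human prostate cancer cell line, measured on Clariom D arrays, which read total RNA with one summary value per annotated feature. The 8 arrays form 4 groups of 2: cells given calcitriol at 10 nM, cells given TGF-β1 at 5 ng/mL, cells given both agents at these doses, and control cells given neither. All groups share the cell line and the medium with fetal bovine serum. Treatment lasted 24 h, and the labels give no time and name no vehicle for the controls. Each group's 2 arrays, lettered A and B, are independent experiments per the labels, so n = 2 throughout.

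Replication begins when the origin recognition complex, CDC6 and CDT1 load the ring of MCM proteins on DNA. CDC45 and the GINS complex then turn that ring into a moving helicase. Primase and the DNA polymerases copy the strands, RFC loads the sliding clamp PCNA, RPA coats single-stranded DNA, FEN1 and LIG1 join the Okazaki fragments of the lagging strand, and CAF-1 lays histones on the new DNA. Many of these genes are transcribed as cells enter S phase, under E2F factors that the retinoblastoma family holds in check. TGF-β1 is known to stop epithelial cells in G1. Calcitriol, the hormonal form of vitamin D, is known to slow the growth of prostate cancer cells in culture.

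Genes known to respond to each agent were looked at first. CYP24A1, the vitamin D-induced enzyme that breaks calcitriol down, rose with calcitriol (4.46 ± 0.35 log2 units, adjusted p = 0.0247 in limma) and with both agents (4.82). TGFBI, a matrix protein induced by TGF-β, rose with TGF-β1 (3.27 ± 0.14, adjusted p = 0.000464 in limma) and with both agents (3.19), as did SMAD7 (0.81 and 0.96) and PMEPA1 (1.19 and 0.95), both feedback inhibitors of the pathway. IGFBP3, which binds insulin-like growth factors, rose under every treatment (both agents 2.44, TGF-β1 1.95, calcitriol 1.64). CDKN1A, which encodes the cyclin-dependent kinase inhibitor p21, rose with TGF-β1 (1.09 ± 0.14, adjusted p = 0.0245 in limma) and with both (1.08 ± 0.14, adjusted p = 0.0161), and MYC, a transcription factor that drives growth, fell with both (-0.74 ± 0.12, adjusted p = 0.0275). The epithelial markers KRT8, KRT18, KRT19, EPCAM and CDH1 were above background on all 8 arrays. So were KLK3 and TMPRSS2, the luminal prostate markers that had a feature. Of the leukocyte, endothelial and fibroblast markers, PTPRC was above background on 1 of 8 arrays, KDR on 0 and LUM on 2. PECAM1 and PDGFRB were above it on 4 each, CD3E on 6 and DCN on 7. In contrast, CD14, CD68, VWF, CDH5, COL1A1 and COL1A2 were above background on all 8.

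With both agents the replication genes were low together and by little. Of the 43, 42 had a lower mean with both agents than in control cells (58.6% of all genes tested, 69.2% of the other protein-coding genes of the members' level), and the median difference was -0.24 log2 units, against -0.12 for the 11788 other protein-coding genes tested whose mean level lay in the members' range and -0.06 for all genes tested. In 33 of the 43, both arrays with both agents lay below both control arrays, which held for 33.7% of all genes tested and 46% of the protein-coding genes of that level. With TGF-β1 alone 35 of 43 had a lower mean (56.2% of all genes, 63.8% at that level), at a median of -0.12 against -0.06 for the protein-coding genes of that level, and 24 of 43 lay below both controls (26.1% of all genes, 34.1% at that level). With calcitriol alone 30 of 43 had a lower mean (56.9% of all genes, 64.4% at that level), at a median of -0.07 against -0.05, and 17 of 43 lay below both controls (23.2% of all genes, 29.2% at that level). The 3 comparisons share the control arrays.

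**Figure D1:**
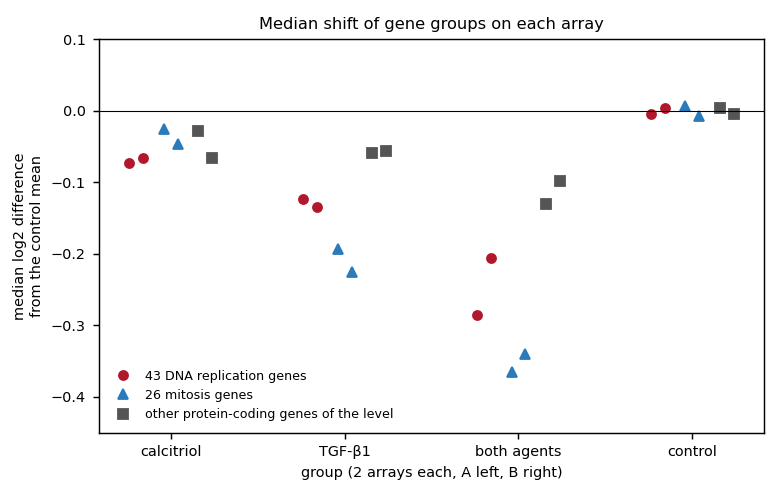
Median log2 difference from the control mean on each of the 8 arrays (left point A, right point B) for the 43 replication genes, 26 mitosis genes and the other protein-coding genes of the members' level. The replication genes sat at -0.29 and -0.21 with both agents and at -0.12 and -0.13 with TGF-β1, while the other protein-coding genes sat at -0.13 and -0.10 with both agents.

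By gene, limma called 1 of the 43 with both agents, LIG1, which fell (1.15% of all genes tested were called lower and 2.27% in either direction). It called 0 of 43 with TGF-β1 (background 0.608%) and 0 of 43 with calcitriol (background 0.00838%). Over the alternatives tried, the number called with both agents ranged from 0 to 15, and with TGF-β1 from 0 to 3. At an unadjusted p under 0.05, 17 of 43 were lower with both agents (14.9% of all genes tested, 21.4% of protein-coding genes of the level), 9 of 43 with TGF-β1 (7.61% and 10.2%) and 2 of 43 with calcitriol (4.63% and 4.36%), and 0 were higher in any of the 3. These counts rest partly on single arrays. The count with both agents was 8 without combination array A and 11 after cyclic loess, and 13 to 16 without any other 1 array. The count with TGF-β1 was 1 without control array A, 1 without TGF-β1 array B, 4 without TGF-β1 array A and 5 after loess, and the count with calcitriol was 0 to 2 with 1 array left out or after loess. A call with both agents needed an unadjusted p of 0.00111 or less, and the standard error of a member's difference was between 0.09 and 0.17. These are bulk cultures, so fewer cells in S phase and less replication RNA per cell cannot be told apart. The arrays with both agents also had a smaller gap between positive and negative control features, 6.74 ± 0.051, than those with calcitriol (6.98 ± 0.064), TGF-β1 (6.93 ± 0.025) or neither (7.03 ± 0.015; SD, n = 2 each), and the summed level of the 5 epithelial markers was 12.90 to 12.91 with both agents, 13.02 to 13.09 with calcitriol and 12.95 to 12.99 with TGF-β1, against 13.08 to 13.10 in control cells. The 4 leukocyte markers summed to 8.81 to 8.93 with both agents, 9.05 to 9.08 with calcitriol and 9.08 to 9.15 with TGF-β1, against 9.01 to 9.14 in control cells. The sums with both agents overlapped the controls for the 5 fibroblast markers (9.19 to 9.51, against 9.45 to 9.68 in control cells) and the 4 endothelial markers (7.21 to 7.28, against 7.19 to 7.63). The part of these differences in the result was not tested. When the arrays were brought to a common scale over the protein-coding genes (cyclic loess), the median of protein-coding genes was -0.004 in place of -0.119, that of the replication genes became -0.12, and 36 of 43 stayed negative. After that step CDC6, GMNN, MCM6, ORC6, PCNA, PRIM2 and RPA3 lay at or above 0.

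**Figure D2:**
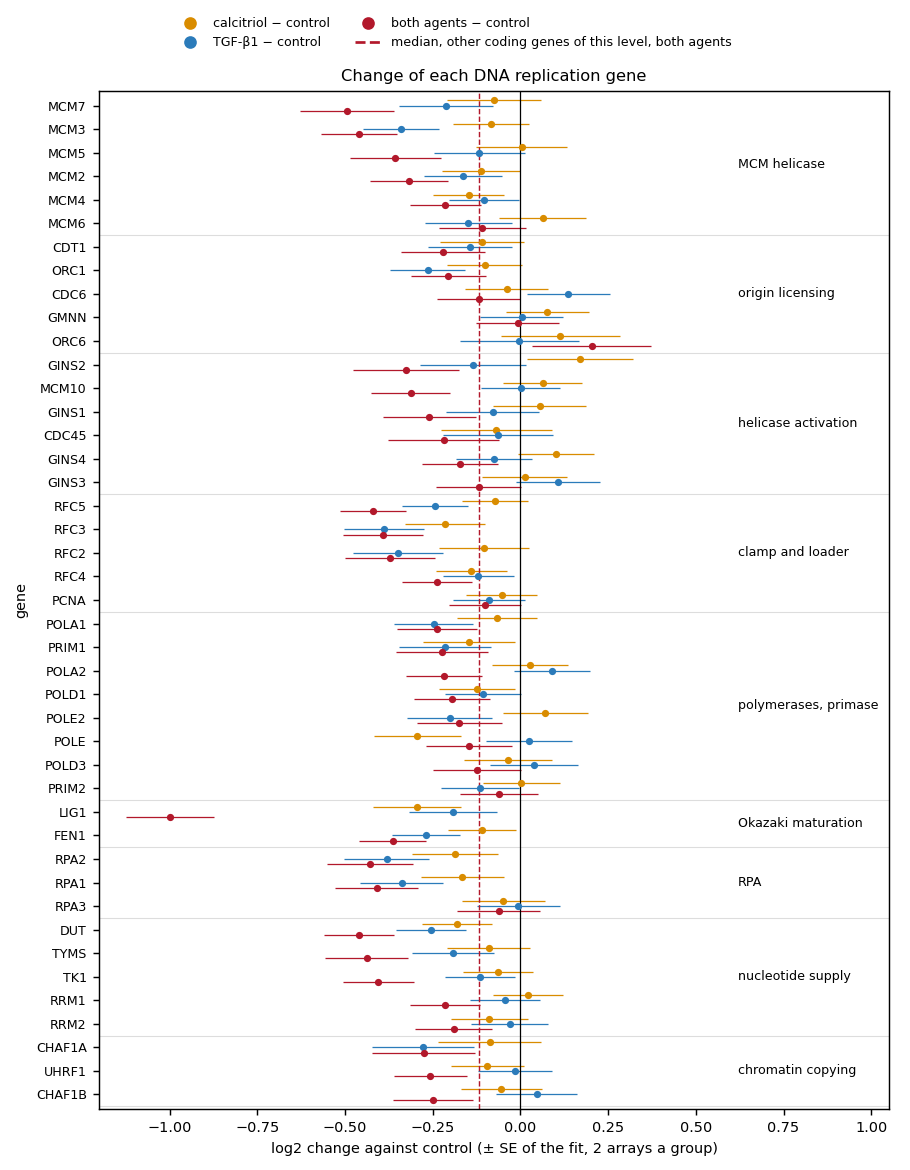
Log2 change of each of the 43 replication genes against control (points, ± SE of the fit, 2 arrays a group) for calcitriol, TGF-β1 and both agents, grouped by role. The dashed line is the median of the other protein-coding genes of this level with both agents, -0.12; LIG1, with 1 of its 2 arrays with both agents under background, is drawn at its fitted value of -0.998, and ORC6 is the one gene above 0 with both agents.

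The promoters of many of these genes share a sequence that the choice of genes did not use. Of the 43, 37 had a promoter window in the RefSeq table (build GRCh38.p14), running from 250 bases before the start site to 50 after it, and several genes had more than 1 start site. An E2F-like motif, meaning TTTCCCGC or TTTGGCGC or TTTGCCGC on either strand, was found in 18 of the 37 genes (48.6%), against 4.58% of 15843 protein-coding genes. Per window this was 34.6% of the members' 52 windows, against 2.85% of all 35116 windows of that length. A CHR-like motif, TTTGAA or TTCGAA on either strand, which is the cell cycle element of many mitotic promoters, was found in 3 of 37 (8.11%), against 17.5% of protein-coding genes and 16 of 21 mitosis genes with a window. None of these strings contains another, TTCGAA is its own reverse complement, and a match describes the letters and not binding. With both agents the median change was -0.25 in the 18 genes with an E2F-like match and -0.24 in the 19 without. The windows are shown for the 3 genes with the largest change with both agents among those with a match, as RefSeq gives them for chr19:48170295-48170594 (LIG1, minus strand), chr7:100101348-100101647 (MCM7, minus strand) and chr15:48331947-48332246 (DUT, plus strand), 5′ to 3′ along the gene, with the motif in capitals.
LIG1: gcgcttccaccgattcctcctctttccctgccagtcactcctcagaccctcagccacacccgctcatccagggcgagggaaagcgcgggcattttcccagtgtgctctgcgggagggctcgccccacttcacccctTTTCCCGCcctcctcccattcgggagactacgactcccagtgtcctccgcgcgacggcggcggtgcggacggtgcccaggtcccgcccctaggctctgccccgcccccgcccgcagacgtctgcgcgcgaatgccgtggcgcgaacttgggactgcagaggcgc
MCM7: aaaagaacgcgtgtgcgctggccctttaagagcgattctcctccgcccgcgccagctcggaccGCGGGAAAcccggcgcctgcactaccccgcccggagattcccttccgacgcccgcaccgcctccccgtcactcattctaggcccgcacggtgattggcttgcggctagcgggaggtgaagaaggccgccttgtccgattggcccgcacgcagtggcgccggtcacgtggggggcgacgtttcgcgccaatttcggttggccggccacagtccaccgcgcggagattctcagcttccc
DUT: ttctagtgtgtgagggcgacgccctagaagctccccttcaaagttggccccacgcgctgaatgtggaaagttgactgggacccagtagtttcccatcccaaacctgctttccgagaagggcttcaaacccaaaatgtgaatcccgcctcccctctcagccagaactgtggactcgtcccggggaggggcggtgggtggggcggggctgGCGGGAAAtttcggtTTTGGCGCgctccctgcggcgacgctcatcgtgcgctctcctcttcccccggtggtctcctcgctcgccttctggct
The LIG1 match reads TTTCCCGC as written, from -114 to -107 relative to the start site. The MCM7 match is its reverse complement, from -187 to -180. The DUT window holds both, the reverse complement of TTTCCCGC from -42 to -35 and TTTGGCGC as written from -27 to -20. RefSeq gives further start sites for MCM7 and DUT, and the windows at those sites held no E2F-like match.

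LIG1, the ligase that seals Okazaki fragments, was the member that passed the test. Its log2 values were 5.56 and 5.30 with calcitriol, 5.47 and 5.60 with TGF-β1 and 4.75 and 4.71 with both agents, against 5.80 and 5.65 in control cells. Both arrays with both agents lay below the other 6, and the single-agent arrays lay below the controls, so no group overlapped the controls. LIG1 was above background on 1 of the 2 arrays with both agents, where background, the level that 95% of an array's negative control features stay under, was 4.74 and 4.90. The size of its fall is therefore given as a bound on the difference between these group means. With the array under background set to its background, that difference was -0.90 log2 units. The bound leaves out the error of the means, and after loess the fitted value was -0.88 ± 0.13. The fit on the values as deposited gave -0.998 (adjusted p = 0.0152 in limma). The adjusted p was 0.106 and 0.108 without combination array A and B, 0.0524 and 0.0711 without control array A and B, and 0.0668 when only these 2 groups were fitted. FEN1, the flap endonuclease that trims the fragments before LIG1 joins them, read 9.39 and 9.28 with calcitriol, 9.17 and 9.18 with TGF-β1 and 9.07 and 9.09 with both agents, against 9.43 and 9.46 in control cells. Its arrays with both agents were the lowest of the 8 and those with TGF-β1 the next lowest, at -0.36 ± 0.10 with both agents (adjusted p = 0.0859) and -0.27 ± 0.10 with TGF-β1 (adjusted p = 0.311), neither past the threshold.

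**Figure D3:**
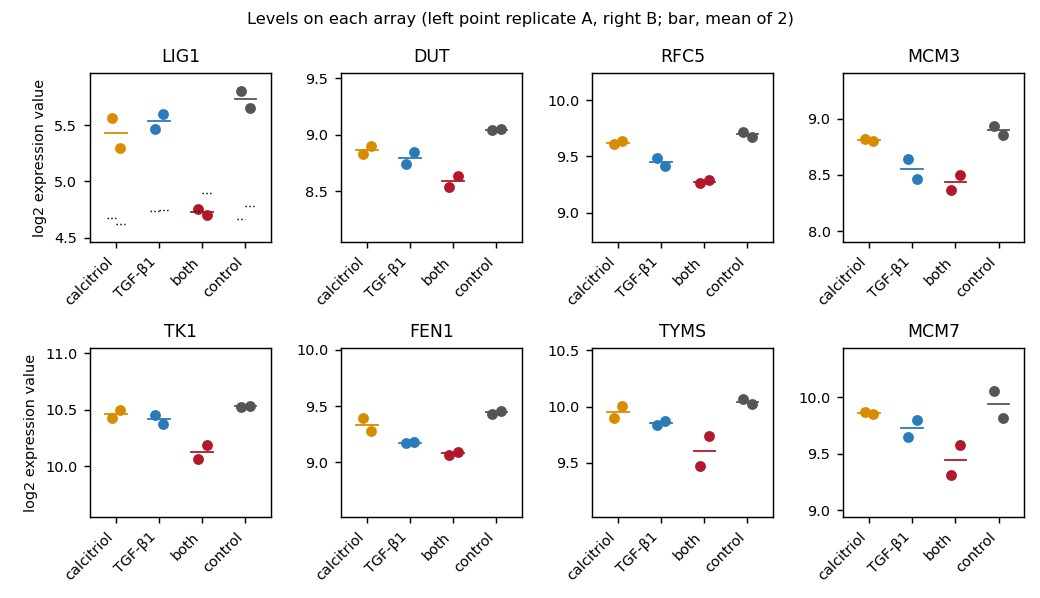
Log2 expression value on each array for the 8 replication genes with the lowest p with both agents against control (points A and B, bar for the mean of 2; dotted marks in the LIG1 panel show each array's background). The arrays with both agents are below the control arrays in all 8 panels, which the choice by low p favours, and for LIG1 they reach background. Over all 43 genes, 33 had both arrays below both controls (33.7% of all genes tested, 46% of protein-coding genes of the members' level).

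All 6 subunits of the MCM helicase, the motor that unwinds DNA, had lower means with both agents (median -0.34, from -0.49 to -0.11), though none passed the test. In 5 of the 6 both arrays lay below both controls (33.7% of all genes tested, 46% of protein-coding genes of the level). After loess 5 of 6 stayed negative, with MCM6 at 0.01. MCM7 read 9.87 and 9.85 with calcitriol, 9.65 and 9.80 with TGF-β1 and 9.31 and 9.57 with both agents, against 10.06 and 9.82 in control cells. MCM3 read 8.82 and 8.80 with calcitriol, 8.64 and 8.47 with TGF-β1 and 8.37 and 8.50 with both agents, against 8.94 and 8.86 in control cells. In MCM7 the arrays with both agents were the lowest 2 of the 8, while in MCM3 the TGF-β1 arrays reached into the same range. The differences with both agents were -0.49 ± 0.13 for MCM7 (adjusted p = 0.0897) and -0.46 ± 0.11 for MCM3 (adjusted p = 0.0701). MCM4, the subunit with the highest signal, read 10.01 and 9.86 with calcitriol, 9.97 and 9.99 with TGF-β1 and 9.84 and 9.90 with both agents, against 10.11 and 10.06 in control cells, a difference of -0.21. The remaining 3 were MCM5 (-0.36), MCM2 (-0.32) and MCM6 (-0.11), and in MCM6 the groups overlapped.

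The 5 licensing genes had the median nearest 0 of the 9 role groups with both agents, -0.12, equal to that of other protein-coding genes of the level, and after loess 2 of the 5 were negative. CDC6, which helps load the MCM ring, read 8.65 and 8.73 with calcitriol, 8.87 and 8.86 with TGF-β1 and 8.47 and 8.75 with both agents, against 8.75 and 8.71 in control cells, with the TGF-β1 arrays highest and the arrays with both agents overlapping the controls. ORC1 (-0.21), the largest subunit of the origin recognition complex, and CDT1 (-0.22), the loader that is destroyed once S phase begins, lay below both controls. GMNN, which encodes geminin, the inhibitor of CDT1, was level with the controls (-0.01). ORC6, another origin subunit, was the only one of the 43 with a higher mean with both agents, 7.08 and 7.01 against 6.88 and 6.81 in control cells (0.20 ± 0.17, adjusted p = 0.501). Its 2 TGF-β1 arrays read 7.12 and 6.57, a gap that spans every other array.

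The helicase activators were the one role group that leaned upward with calcitriol alone, where 5 of 6 had positive differences (median 0.06, none past the test). With both agents all 6 were negative (median -0.24) and stayed so after loess (median -0.12). GINS1 read 8.54 and 8.77 with calcitriol, 8.63 and 8.41 with TGF-β1 and 8.24 and 8.44 with both agents, against 8.60 and 8.59 in control cells. MCM10, which binds the helicase as origins fire, read 6.03 and 5.96 with both agents and 6.32 and 6.42 with calcitriol, against 6.33 and 6.28 in control cells, and its arrays with both agents were below all 6 others. GINS2 read 7.37 and 7.54 with both agents and 7.93 and 7.97 with calcitriol, against 8.00 and 7.57 in control cells, whose 2 arrays lay farther apart than the means with both agents and in control cells. The other differences with both agents were -0.22 for CDC45, -0.17 for GINS4 and -0.12 for GINS3.

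The 4 RFC genes among the members had larger differences with both agents than PCNA, the clamp that RFC loads. This contrast was not tested, and RFC1, another loader subunit, was counted with the further fork factors. All 5 genes of the clamp and loader group had both arrays with both agents below both controls, and 0 passed the test. That arrangement held for 33.7% of all genes tested and 46% of protein-coding genes of the level. The median of the 5 genes was -0.37, and -0.25 after loess with PCNA then at 0.01. RFC5 read 9.61 and 9.63 with calcitriol, 9.49 and 9.42 with TGF-β1 and 9.26 and 9.29 with both agents, against 9.72 and 9.67 in control cells. RFC3 read 10.29 and 10.28 with calcitriol, 10.23 and 9.99 with TGF-β1 and 10.04 and 10.17 with both agents, against 10.51 and 10.48 in control cells. RFC2 read 8.83 and 8.97 with calcitriol, 8.74 and 8.57 with TGF-β1 and 8.51 and 8.76 with both agents, against 9.06 and 8.95 in control cells. RFC5 was lowest with both agents, at -0.42 ± 0.09 (adjusted p = 0.0618), while RFC3 was about as low with TGF-β1 alone (-0.39 ± 0.11, adjusted p = 0.229) as with both (-0.39 ± 0.11, adjusted p = 0.103), and RFC2 likewise (-0.35 and -0.37). RFC4 read 9.95 and 10.04 with calcitriol, 10.02 and 10.01 with TGF-β1 and 9.89 and 9.90 with both agents, against 10.20 and 10.07 in control cells, lowest with both agents at -0.24. PCNA, the clamp that tethers the polymerases, read 10.01 and 10.07 with both agents against 10.09 and 10.20 in control cells, a difference of -0.10 ± 0.10 (adjusted p = 0.579). A second RFC3 feature with a weaker signal gave -0.18 (both agents), -0.36 (TGF-β1) and -0.61 (calcitriol), a different order from the feature used.

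The polymerase and primase genes had smaller differences, with all 8 negative with both agents (median -0.18, and -0.07 after loess with PRIM2 then positive) and 0 past the test. POLA1, the catalytic subunit of the polymerase that extends primers, read 9.20 and 9.38 with calcitriol, 9.20 and 9.03 with TGF-β1 and 9.12 and 9.12 with both agents, against 9.31 and 9.41 in control cells. Its TGF-β1 and combined arrays both lay below the controls. POLE, the leading-strand polymerase, read 6.36 and 6.19 with calcitriol, 6.59 and 6.59 with TGF-β1 and 6.33 and 6.51 with both agents, against 6.46 and 6.67 in control cells, and it was the one member lowest with calcitriol (-0.29 ± 0.12, adjusted p = 0.67). The other differences with both agents were -0.22 for PRIM1, -0.22 for POLA2, -0.20 for POLD1, -0.17 for POLE2, -0.12 for POLD3 and -0.06 for PRIM2. A second PRIM2 feature with a weaker signal, above background on all 8 arrays, had the opposite sign with both agents (0.24).

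In RPA, the single-strand binding complex, the large and middle subunits lay below the controls under all 3 treatments, and the small subunit differed by little. RPA1 read 9.48 and 9.64 with calcitriol, 9.39 and 9.38 with TGF-β1 and 9.20 and 9.44 with both agents, against 9.75 and 9.70 in control cells. RPA2 read 7.76 and 7.72 with calcitriol, 7.58 and 7.51 with TGF-β1 and 7.43 and 7.56 with both agents, against 8.07 and 7.79 in control cells. In both genes every treated array lay below both controls, and the TGF-β1 and combined arrays overlapped each other, with differences for RPA1 of -0.34 ± 0.12 (adjusted p = 0.301) with TGF-β1 and -0.41 ± 0.12 (adjusted p = 0.102) with both. RPA2 gave -0.38 ± 0.12 (adjusted p = 0.269) and -0.43 ± 0.12 (adjusted p = 0.0982). RPA3 differed by -0.01 with TGF-β1 and -0.06 with both.

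The enzymes of nucleotide supply had a median of -0.40 with both agents (-0.30 after loess), with 0 past the test. All 5 had both arrays below both controls (33.7% of all genes tested, 46% of protein-coding genes of the level). All 5 also had both arrays below both TGF-β1 arrays (25.7% of all genes tested). DUT, which clears dUTP so that uracil is not built into DNA, read 8.83 and 8.90 with calcitriol, 8.74 and 8.84 with TGF-β1 and 8.54 and 8.63 with both agents, against 9.04 and 9.05 in control cells. TK1, the S phase thymidine kinase, read 10.43 and 10.50 with calcitriol, 10.45 and 10.38 with TGF-β1 and 10.06 and 10.19 with both agents, against 10.52 and 10.53 in control cells. TYMS, the thymidylate synthase, read 9.90 and 10.01 with calcitriol, 9.83 and 9.87 with TGF-β1 and 9.47 and 9.74 with both agents, against 10.06 and 10.02 in control cells. In each of these the arrays with both agents were the lowest 2 of the 8 and the single-agent arrays lay between them and the controls, at -0.46 ± 0.10 for DUT (adjusted p = 0.0581), -0.40 ± 0.10 for TK1 (adjusted p = 0.0753) and -0.44 ± 0.12 for TYMS (adjusted p = 0.0887) with both agents. RRM1, the large subunit of ribonucleotide reductase, read 11.37 and 11.38 with calcitriol, 11.32 and 11.29 with TGF-β1 and 11.18 and 11.09 with both agents, against 11.29 and 11.41 in control cells, with differences of -0.22 (both agents), -0.04 (TGF-β1) and 0.02 (calcitriol), and its interaction estimate did not pass (-0.20, adjusted p = 0.975). RRM2, the regulated subunit, differed by -0.19. RefSeq names pseudogenes for 10 of the 43 genes, 8 of them for DUT, 4 for PCNA and 3 each for RPA2 and RRM2, and signal from such copies was not tested.

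Of the genes that copy chromatin behind the fork, all 3 had both arrays with both agents below both controls (median -0.26, and -0.14 after loess). That arrangement held for 33.7% of all genes tested and 46% of protein-coding genes of the members' level. CHAF1B, a subunit of the histone chaperone CAF-1, read 8.76 and 8.90 with calcitriol, 8.89 and 8.97 with TGF-β1 and 8.58 and 8.69 with both agents, against 8.78 and 8.98 in control cells. UHRF1, which brings DNA methylation to new strands, differed by -0.26 ± 0.10 (adjusted p = 0.19) with both agents and by -0.02 with TGF-β1, and CHAF1A by -0.28 and -0.28.

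Among single agents, the 8 members with the lowest p with TGF-β1 also included DUT (-0.25 ± 0.10, adjusted p = 0.351), RFC5 (-0.24 ± 0.09, adjusted p = 0.346), RFC2 (-0.35 ± 0.13, adjusted p = 0.324) and MCM3 (-0.34 ± 0.11, adjusted p = 0.267). With calcitriol they were POLE, LIG1 (-0.30 ± 0.13, adjusted p = 0.671), RFC3 (-0.22 ± 0.11, 0.717), DUT (-0.18 ± 0.10, 0.725), RPA2 (-0.19 ± 0.12, 0.762), MCM4 (-0.15 ± 0.10, 0.773), RPA1 (-0.17 ± 0.12, 0.782) and RFC4 (-0.14 ± 0.10, 0.786), in each case with the adjusted p after the difference. None passed the test in either single-agent comparison.

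Setting both agents against each agent alone asked what the second agent added. Against calcitriol, 41 of 43 members had lower means (54.7% of all genes tested, 63.6% of protein-coding genes of the level). Their median was -0.19, against -0.07 for protein-coding genes of the level. In 27 of 43 both arrays with both agents lay below both calcitriol arrays (27.8% of all genes tested). The number called by limma was 0 (background 0.587%), and 14 of 43 were lower at an unadjusted p under 0.05 (background 8.38%). Against each agent alone, these counts and those of arrays below are set only beside all genes tested. Against control, the shares at the members' level were higher than those of all genes (46% and 33.7% for arrays below, 21.4% and 14.9% at that p). The count at an unadjusted p was 3 without combination array A, 6 and 9 without calcitriol array B and A, and 8 after loess, and the median was -0.12 without combination array A. LIG1 (-0.61 with the array under background set to it, adjusted p = 0.0714 on the values as deposited), RFC5 (-0.35 ± 0.09, adjusted p = 0.188), MCM3 (-0.38 ± 0.11, adjusted p = 0.205) and TK1 (-0.34 ± 0.10, adjusted p = 0.213) had the lowest p. Against TGF-β1, 36 of 43 had lower means (55.6% of all genes tested, 63.7% of protein-coding genes of the level). Their median was -0.12, against -0.06 for protein-coding genes of the level. In 23 of 43 both arrays with both agents lay below both TGF-β1 arrays (25.7% of all genes tested). The number called by limma was 0 (background 0%), and 5 of 43 were lower at an unadjusted p under 0.05 (background 5.16%). Without combination array A the count was 2, the lower means 29 and the median -0.081, and the count was 2 without TGF-β1 array B and 1 after loess. The lowest p were those of LIG1 (-0.71 with the array under background set to it, adjusted p = 0.468 on the values as deposited), TK1 (-0.29 ± 0.10, adjusted p = 0.526), POLA2 (-0.31 ± 0.11, adjusted p = 0.526) and MCM10 (-0.31 ± 0.11, adjusted p = 0.526). In 14 of 43 members both arrays with both agents lay below all 6 other arrays, which held for 12.4% of all genes tested and 18.6% of protein-coding genes of the level.

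The interaction, which is 0 where the log2 effects of the agents add up, was called for 0 of 43 members (background 0%). At an unadjusted p under 0.05, 2 of 43 were below 0 (background 2.18%). The estimate was below 0 in 26 of 43 (49.6% of all genes tested, 51.6% of protein-coding genes of the level). Its median was -0.04, against -0.008 for protein-coding genes of the level. LIG1 (adjusted p = 0.954, with no size given because of the array under background), MCM10 (-0.38 ± 0.16, adjusted p = 0.954), POLA2 (-0.33 ± 0.15, adjusted p = 0.954) and GINS2 (-0.36 ± 0.21, adjusted p = 0.97) had the lowest p. The median was 0.023 without combination array A and -0.12 without combination array B. All 6 helicase activators and all 5 nucleotide supply genes had a negative interaction estimate, while 4 of the 5 clamp and loader genes had a positive one. This contrast between roles was not tested. Over all members the estimate was below 0 in 18 of 43 without combination array A and in 31 without combination array B.

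Sorted by array signal, the upper band of members had the lowest median with both agents, although LIG1, with the most negative fitted value, had the lowest signal of the 43. Among the 15 members with log2 values from 8.82 to 11.29 the median was -0.36, against -0.12 for 2467 other protein-coding genes of that range. Among the 14 members from 7.87 up to that range it was -0.22, against -0.12 for 2283 genes, and among the 14 members below 7.87 it was -0.22, against -0.12 for 7038 genes. A log2 value depends on the feature as well as on the RNA, so the bands sort array signals and not amounts of RNA.

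**Figure D4:**
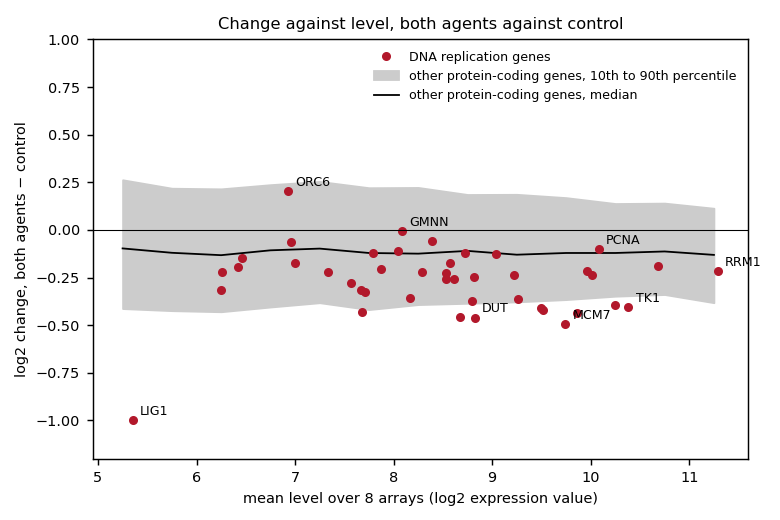
Log2 change with both agents against control, plotted against the mean log2 value over 8 arrays, for the 43 replication genes (points) and the other protein-coding genes (line, median; band, from the 10th to the 90th percentile). The median of the other genes stays near -0.12 at every level, and the replication genes above a log2 value of 8.82 have a median of -0.36.

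Other genes of the pathway, listed by their known role, had negative medians with both agents, to be read against a median of -0.12 and 69.2% negative among protein-coding genes of the members' level. With both agents 0 of 11 further origin factors passed the test (9 negative, median -0.22), 0 of 18 further fork factors (13 negative, median -0.15), 0 of 6 further nucleotide enzymes (5 negative, median -0.12), 0 of 7 further chromatin factors (5 negative, median -0.10) and 0 of 6 genes that control CDT1 turnover (4 negative, median -0.22). At an unadjusted p under 0.05 these lists held 4, 5, 2, 2 and 3 lower genes and 1 higher gene, the last in the CDT1 list. The share lower at that p was 14.9% of all genes tested and 21.4% of protein-coding genes of the members' level. After loess the medians were -0.10, -0.032, -0.0055, -0.0044 and -0.10, and 1 gene of these lists passed the test, CUL4B (0.55, adjusted p = 0.046 in limma), a scaffold of the ubiquitin ligase that destroys CDT1, which was higher. The lowest p in each were those of DBF4 (-0.41 ± 0.10, adjusted p = 0.0754), the activator of the CDC7 kinase that fires origins, POLD2 (-0.49 ± 0.12, adjusted p = 0.0695), a subunit of polymerase delta, DTYMK (-0.40 ± 0.13, adjusted p = 0.126), the thymidylate kinase, NASP (-0.34 ± 0.11, adjusted p = 0.121), a histone chaperone, and SKP2 (-0.40 ± 0.10, adjusted p = 0.0736), which marks CDT1 and p27 for destruction.

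Of 13 E2F and pocket protein genes, E2F5, an E2F that represses with p107 and p130, fell with TGF-β1 (-0.73 ± 0.11, adjusted p = 0.0396 in limma) and with both agents (-0.57 ± 0.11, adjusted p = 0.0468), and after loess 0 of the 13 passed in either comparison. The 26 mitosis genes, which act after replication, had medians of -0.38 with both agents, -0.22 with TGF-β1 and -0.04 with calcitriol, set beside -0.24, -0.12 and -0.07 in the replication genes. After loess the medians were -0.26, -0.16 and -0.004 in the mitosis genes and -0.12, -0.07 and -0.033 in the replication genes. In limma on the values as deposited, 0 of the 26 mitosis genes passed in any of the 3 comparisons. At an unadjusted p under 0.05 the number lower was 19, 11 and 0. The share lower at that p was 14.9%, 7.61% and 4.63% of all genes tested. Among protein-coding genes of the replication genes' level it was 21.4%, 10.2% and 4.36%. BIRC5, which encodes the mitotic protein survivin, had the lowest p with both agents (-0.57 ± 0.11, adjusted p = 0.051), CENPE, a kinetochore motor, with TGF-β1 (-0.60 ± 0.16, adjusted p = 0.19) and CENPF, a kinetochore protein, with calcitriol (-0.26 ± 0.12, adjusted p = 0.692). Among the 4 leukocyte markers limma called PTPRC with both agents (adjusted p = 0.0244), but it was above background on 1 of 8 arrays, so no direction or size is given for it.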

How the data were processed

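PC-3 RNA from 4 groups of 2 cultures was hybridised to Clariom D arrays. The authors deposited 1 log2 value per feature and array, 138745 features in all; per the submitters' processing notes the tools were RMA, oligo and limma, with no version given, the base of the log was taken as the usual RMA output, and the genome build is not given in the sources used here. Array medians lay between 4.33 and 4.35. No scanner file was used, and the number of arrays limits the precision.

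Features were named from the platform's probe table. Those above 4.34, the 50th percentile, on at least 2 arrays were kept, with the highest-mean feature for each gene, which left 23854 of 33616 genes, 14793 of them protein-coding. One linear model over the 8 arrays, with a mean for each of the 4 groups and 4 residual degrees of freedom, was fitted with limma 3.58.1 (R 4.3.3, data.table version 1.17.8); 6 contrasts were tested two-sided with Benjamini-Hochberg adjustment over all genes, and a gene was called at an adjusted p under 0.05. Errors after ± are standard errors of the fit unless marked SD. Exact permutation of 2 against 2 arrays cannot give a p below 0.333. The fit was run on simulated data with planted falls, each larger than the fall of any member but LIG1. That run does not show how well falls of the members' size are recovered.

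The members and lists were chosen with earlier results of these data known. Full statistics are given for the 8 members with the lowest p in each comparison with control and for 4 in the others, and values by array for these and for the member with the highest signal in each role; a few further members were given values because a sentence turned on them. Of each other list up to 3 called genes are named, or the gene with the lowest p. Replicates sharing a letter were checked for pairing: their deviations from the group means correlated between -0.084 and 0.081 over all genes, so the letters were not taken to pair samples. Alternatives were other gene filters, cyclic loess, the mean of a gene's features, an intensity trend in the prior, the 2 groups alone, the letter as a block and each array left out.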

Additional observations from a re-analysis of the deposited data

How the results depend on the processing

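Over 16 alternatives, counts of members called and member medians were kept in 172 checks, moved in 19 and reversed in 1. A count was kept if it was unchanged. A median was kept if its sign held and it shifted by less than 0.048, the SD of the member median between replicates. The number of members called with both agents against control was 1, and it was 5 with protein-coding genes only, 10 with a stricter filter (which drops LIG1), 15 with an intensity trend and 0 with only the groups compared; leaving out 1 array gave 0 to 1. With both agents against calcitriol it was 0, then 1 with protein-coding genes only (LIG1) and 8 with the trend, and with TGF-β1 against control 0, then 3 with the trend (RFC3, RPA1 and MCM3). The median member change was -0.24 and -0.12 after cyclic loess for both agents against control, -0.12 and -0.061 against TGF-β1, and -0.19 and -0.12 against calcitriol; leaving out 1 array gave -0.29 to -0.21, -0.18 to -0.081 and -0.24 to -0.12. For TGF-β1 against control the median was -0.12 and -0.07 after loess, with 30 of 43 members negative after it. For calcitriol it was -0.07 and -0.033 after loess, with 27 of 43 negative. Both shifts fell under the rule for kept. The interaction median was -0.04, with a range from -0.12 to 0.023 over arrays left out. The cause of these shifts was not tested, beyond the loss of arrays or of tested genes that each setting makes. For single members, 540 checks kept the side of the threshold, 26 became called and 5 lost the call, all 5 of them LIG1 with both agents against control. With the replicate block LIG1 was still the 1 member called, with an adjusted p of 0.0346. The number of all genes called with both agents against control was 542, and it was 931 with protein-coding genes only, 134 without a filter, 1811 with the stricter filter, 3072 with the trend, 14 with only the groups compared, 213 with the replicate block and 13 to 218 with 1 array left out. For TGF-β1 it was 145, then 242, 38, 364, 762, 12, 43 and 12 to 48 in that order of settings. For both agents against calcitriol it was 140, then 56 without a filter, 304 with the stricter filter, 1059 with the trend, 2 with only the groups compared, 66 with the block and 0 to 83 with 1 array left out. For calcitriol it was 2, then 5 with the stricter filter, 18 with the trend, 1 with only the groups compared, 0 with the block and 0 to 2 with 1 array left out. After loess the calls were 603 higher of 749 with both agents (267 of 542 without it), 111 of 159 with TGF-β1 (82 of 145) and 109 of 141 against calcitriol (94 of 140).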
